A study of Mus musculus with 4 samples.

Results

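Medullary thymic epithelial cells (mTECs) include rare mimetic cells, which carry the expression program of a cell type from outside the thymus. 8 transcription factors that mark such programs were followed here, out of 31053 features counted: Pou2f3 for tuft cells, Spib for microfold cells, Foxj1 for ciliated cells, Insm1 for neuroendocrine cells, Hnf4a for enterohepatic cells, Grhl1 for keratinocytes, Foxi1 for ionocytes and Myog for muscle. They were taken by gene symbol, 1 factor for each of 8 lineages, and none of their own counts entered the choice of cells below. The measurement was droplet-based single-cell RNA sequencing of sorted thymic epithelial cells (TECs; EpCAM+ CD45- TER119-) from 6-week-old C57BL/6 mice. In this assay each mRNA molecule receives a cell barcode and a unique molecular identifier (UMI) near its 3′ end. The study asked how the mTEC compartment depends on RANK and CD40, a pair of receptors that thymocytes and other hematopoietic cells engage on TECs.

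There were 4 groups. WT-Control were wild-type mice given control IgG, and WT-RANKL-Ab were wild-type mice given an antibody that neutralizes RANKL, the ligand of RANK. Cd40-/- Control and Cd40-/- RANKL-Ab were mice with a germline deficiency of Cd40, given control IgG and the RANKL antibody in that order. Injection was at 4 weeks of age and analysis 2 weeks later. Each library is a pool of 3 mice and stands alone in its group, so no group has a replicate and no test between groups was possible. Every interval is an exact 95% interval and covers counting error only, since neither mouse-to-mouse nor library-to-library spread can be estimated. Intervals of CPM and of their ratios also treat UMIs as independent, so the spread between cells is not covered. They are too narrow where few cells hold many of the UMIs: the 10 cells with the most Myog held 35.4% of its UMIs in WT-Control. Both comparisons with the antibody in wild-type mice and with Cd40 loss use the same WT-Control library. Where 4 values follow each other, the wild-type libraries come before the Cd40-/- libraries, and in each pair the control comes before the antibody.

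As background, mTECs express a great many genes of other tissues, in part under the control of the regulator Aire, and thereby show them to developing T cells. Mimetic cells are a further source of such antigens: they use the lineage-defining transcription factor of the tissue they resemble, and many of them descend from cells that once expressed Aire. RANK and CD40 both signal to NF-kappaB and sustain the mature, Aire-expressing stage of mTECs.

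The 4 libraries held 10218, 7164, 8591 and 2082 cells after filtering, with medians of 7622, 6086, 6267 and 7532 UMIs per cell. Cd40 itself was at 110.0, 28.8, 5.75 and 4.75 counts per 1000000 UMIs (CPM). It was low in both Cd40-/- libraries, although UMIs at the 3′ end need not fall in the deleted part of the gene. Aire was at 333, 34.5, 283 and 2.77 CPM. The Cd40-/- libraries shared 205 cell barcodes, 9.85% of the smaller library, where other pairs shared 0.817% to 1.42%. The shared barcodes had a median of 723 UMIs in the control library and 24073 in the antibody library, and only 6 and 4 of them fell in a mimetic gate. Leaving them out changed no count of factors past 2-fold between libraries. Thymocyte markers were found in a part of the cells, despite the CD45- sort: the thymocyte gate held 0.881%, 3.20%, 4.28% and 9.03% of cells, and a further 0.421%, 2.79%, 5.16% and 5.96% passed both the thymocyte and the cortical TEC gate. No doublet caller was run, and 8.06%, 5.71%, 8.09% and 7.40% of cells passed at least 2 of the mimetic, cortical TEC and progenitor gates. Such a cell went to the gate with the largest share of its markers detected, and ties formed a class of their own. In the first 3 libraries these cells were 53.8%, 51.9% and 53.5% of microfold-gated cells. They were 23.6%, 42.1% and 27.2% of enterohepatic-gated cells, and 14.6%, 8.15% and 13.5% of tuft-gated cells.

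Cells were assigned to classes with marker genes that leave out all 8 factors. A tuft-gated cell, for example, needed at least 3 of 10 effector genes such as Trpm5 and Avil, and marker UMIs of at least 10 per 10000. All markers of the 8 mimetic gates were detected in WT-Control. Among the 10 leading genes by fold, the gates held 5 of their own markers (tuft), 5 (microfold), 4 (ciliated), 2 (neuroendocrine), 6 (enterohepatic), 8 (keratinocyte), 2 (ionocyte) and 6 (muscle). Cells were chosen by these same markers, so such counts are no independent test of the gates. The neuroendocrine gate was led by Car8 and Speer4c beside its markers Resp18 and Stxbp5l, and the ionocyte gate rested on 3 cells. Cells with at least 2 Aire UMIs made up 48.1% of enterohepatic-gated and 64.3% of muscle-gated cells in WT-Control, against 7.29% of tuft-gated cells.

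7 of the 8 factors were at least 4-fold higher in their own gate than in all other cells of WT-Control. The same limit was passed by 4.43% of 21506 genes for the tuft gate, 3.54% for microfold, 9.02% for ciliated, 4.02% for neuroendocrine, 6.16% for enterohepatic, 4.37% for keratinocyte, 5.72% for ionocyte and 6.89% for muscle. Insm1 was the exception, at 165 CPM in neuroendocrine-gated cells and 55.0 CPM elsewhere, which is 3.0-fold. The folds of the other factors ran from 4.16 for Spib to 59.9 for Myog, leaving aside Foxi1 with 3 cells. Most UMIs of a factor still lay outside its gate, except for Pou2f3: the own gate held 57.7% of the UMIs of Pou2f3, 37.8% of Foxj1, 35.0% of Hnf4a, 25.7% of Myog, 18.8% of Spib, 14.9% of Grhl1, 5.55% of Insm1 and 3.25% of Foxi1.

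**Figure D1:**
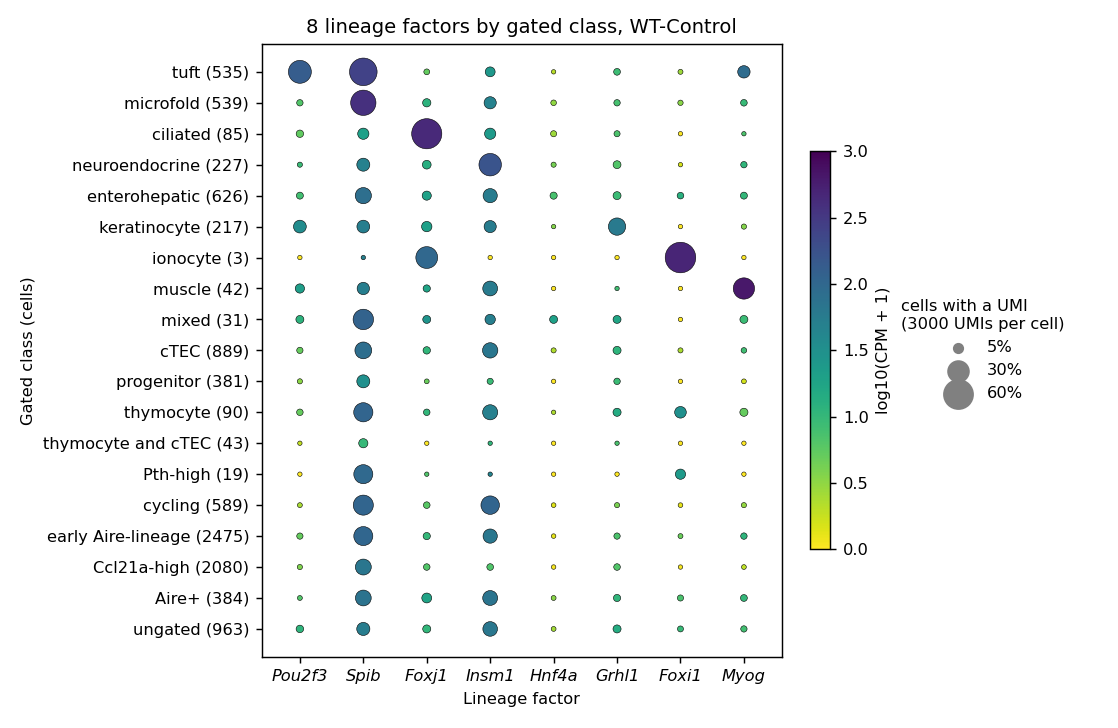
Each dot is 1 factor (x axis) in 1 gated class of WT-Control (y axis, number of cells in brackets); colour gives log10(CPM + 1) and area the percentage of cells with a UMI after thinning each cell to 3000 UMIs. Foxj1 is highest in the ciliated row at 455 CPM, whereas Spib and Insm1 are present in most rows. The cTEC row, of the cortical TEC gate, is mixed: 64.9% of its 889 cells had 2 or more Aire UMIs. Only 14.1% of them carried both cortical genes Psmb11 and Prss16. In that part Spib was at 7.45 CPM and Insm1 at 3.31 CPM, against 92.0 and 72.6 CPM in the rest of the row.

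Over all cells of a library, 4 of the 8 factors were at least 2-fold lower in WT-RANKL-Ab than in WT-Control and 1 was at least 2-fold higher, where 29.6% of 20414 genes were lower and 7.67% higher. In Cd40-/- Control, 1 factor was lower and 0 were higher than in WT-Control, against 5.70% and 6.47% of 21110 genes. In Cd40-/- RANKL-Ab, 6 factors were lower and 0 higher than in WT-Control (34.5% and 13% of 20207 genes), and 7 were lower and 0 higher than in Cd40-/- Control (31.3% and 5.39% of 19283 genes). A level over all cells does not separate fewer cells of a class from less RNA per cell, so the number of gated cells and the level within the gate are given for each factor. Shares are of the cells of a library, so the loss of one class raises the share of the others.

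**Figure D2:**
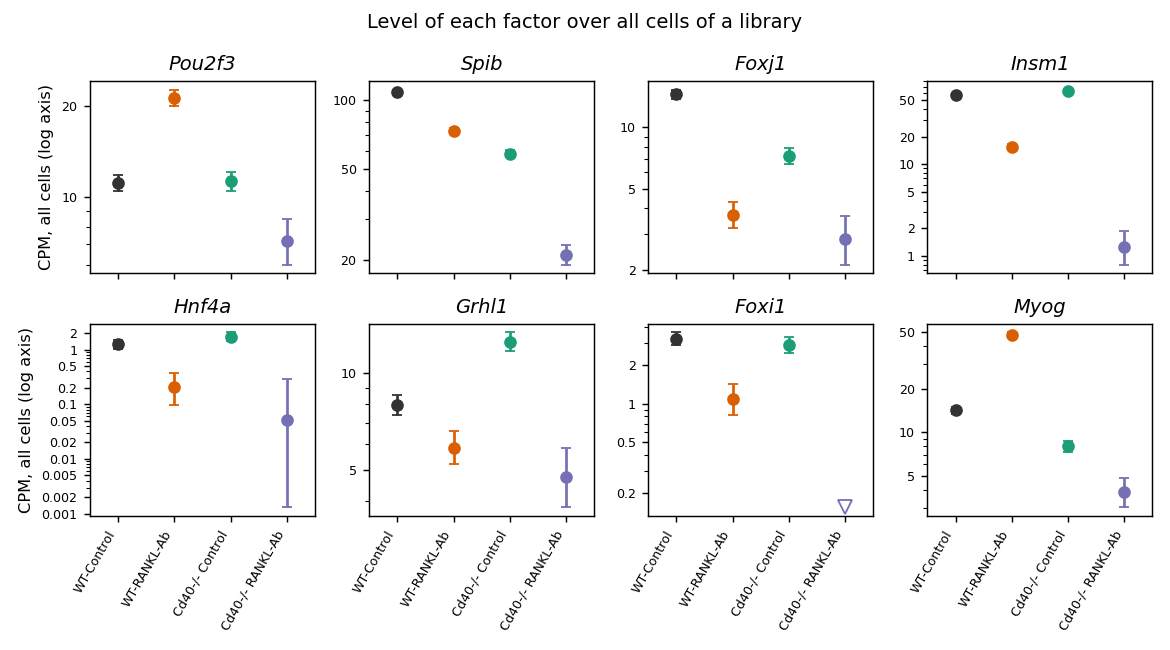
CPM over all cells (log axis, a scale of its own in each panel) for each factor in the 4 libraries; bars are exact 95% Poisson intervals and the open triangle marks the limit of 3 UMIs where none was found. Pou2f3 and Myog are highest in WT-RANKL-Ab (21.2 and 47.7 CPM), and all 8 factors are lowest in Cd40-/- RANKL-Ab, for Foxj1, Hnf4a and Grhl1 with intervals that overlap those of WT-RANKL-Ab.

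Cells of the 8 mimetic gates together made up 22.3%, 13.5%, 16.2% and 3.70% of the libraries. On the log2 scale these shares differed from WT-Control by -0.72 (-0.83 to -0.61), -0.46 (-0.56 to -0.36) and -2.59 (-2.94 to -2.26). The tuft gate was the only one with a larger share in WT-RANKL-Ab than in WT-Control, apart from the ionocyte gate with 6 and 3 cells. In Cd40-/- RANKL-Ab, 58 of the 77 mimetic-gated cells were tuft-gated.

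**Figure D3:**
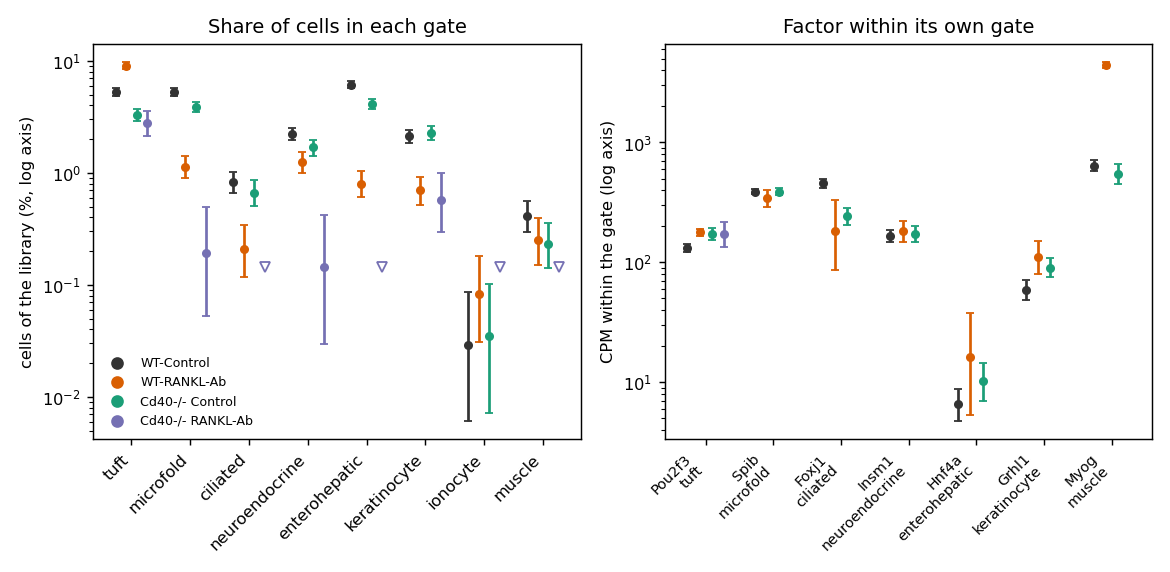
Left, percentage of a library's cells in each mimetic gate (log axis) with exact 95% Clopper-Pearson intervals; open triangles mark the limit of 3 cells where a gate held none. Right, CPM of each factor within its own gate (log axis) with Poisson intervals, for gates of 15 cells or more. Shares differ by gate and library over more than a factor of 10, and the tuft share is larger in WT-RANKL-Ab than in WT-Control (9.07% and 5.24%). Spib lies between 343 and 389 CPM and Insm1 between 165 and 182 CPM. Foxj1 (181 to 455 CPM), Grhl1 (59.2 to 110.4 CPM) and Myog (545 to 4427 CPM) vary more. The share of Aire-rich cells in a gate differs between libraries (30.8% and 8.64% of microfold-gated cells in WT-Control and WT-RANKL-Ab).

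Pou2f3, the POU-domain factor that tuft cells require, lies at chr9:43123939-43210369 (minus strand; GRCm38, as are all gene positions here). Its UMIs numbered 1062, 1033, 749 and 137, or 11.1, 21.2, 11.3 and 7.15 CPM over all cells. WT-RANKL-Ab stood above the other 3 libraries, and Cd40-/- RANKL-Ab below them. The log2 ratio to WT-Control was 0.93 (0.81 to 1.05) in WT-RANKL-Ab, 1.91-fold and so just short of the 2-fold limit, 0.02 (-0.12 to 0.16) in Cd40-/- Control and -0.64 (-0.91 to -0.38) in Cd40-/- RANKL-Ab. Tuft-gated cells numbered 535, 650, 282 and 58, which is 5.24%, 9.07%, 3.28% and 2.79% of the libraries.

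Within the tuft gate, Pou2f3 was at 133, 178, 173 and 171 CPM. It was thus lowest in WT-Control, by a log2 ratio of 0.43 (0.27 to 0.58) for WT-RANKL-Ab and 0.38 (0.18 to 0.58) for Cd40-/- Control, whereas the interval for Cd40-/- RANKL-Ab (-0.01 to 0.73) included 0. A Pou2f3 UMI was found in 59.1%, 61.5%, 59.9% and 70.7% of tuft-gated cells, and in 36.9%, 44.1%, 40.9% and 52.0% after thinning each cell to 3000 UMIs. Thinning left out 1764, 1669, 2239 and 369 cells of the libraries. For background, cells of the cortical TEC (cTEC) gate that carry both Psmb11 and Prss16, the cortical proteasome subunit and protease, had a Pou2f3 UMI in 4.80%, 4.57%, 2.74% and 4.80% of 125, 525, 656 and 354 cells. After thinning these shares were 0%, 2.43%, 1.09% and 2.08%. The median depth of these cells was 6914, 7250, 6200 and 9772 UMIs, against 7040, 6040, 5414 and 6779 in the tuft gate.

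The tuft gate held 57.7%, 74.4%, 40.6% and 51.8% of all Pou2f3 UMIs. The next highest class in both control libraries was the keratinocyte gate, with 34.6 CPM for wild-type and 63.0 CPM for Cd40-/- mice (log2 ratio 0.86, 0.38 to 1.36), and 18.4 CPM from 7 UMIs in WT-RANKL-Ab. Pou2f3 was found in 19.4% of keratinocyte-gated cells of WT-Control, or 10.5% after thinning, which is above the Psmb11+ Prss16+ cells. Among cells with at least 5 Pou2f3 UMIs, 11 of 13, 15 of 18 and 6 of 11 were tuft-gated in the first 3 libraries, and none was found in the last.

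Spib, an ETS-family factor that microfold cells of the gut need to mature, lies at chr7:44525993-44532071 (minus strand). Its 300 bases around the start, from 250 before to 50 after, are shown because Spib differed between libraries inside and outside mimetic gates and RANK and CD40 signal to NF-kappaB. The sequence is from RefSeq (GRCm38.p6), chr7:44532022-44532321, minus strand, written 5′ to 3′. Capitals mark its 1 match to the NF-kappaB consensus, searched on both strands, whose first base lies 180 bases before the start.
Spib: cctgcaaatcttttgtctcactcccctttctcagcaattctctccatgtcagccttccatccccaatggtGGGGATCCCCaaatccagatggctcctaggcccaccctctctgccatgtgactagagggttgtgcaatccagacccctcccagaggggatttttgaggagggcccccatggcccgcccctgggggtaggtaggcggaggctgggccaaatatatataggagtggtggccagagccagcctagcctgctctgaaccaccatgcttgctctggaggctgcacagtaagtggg
Such a match was found in 4.51% of 32851 promoters of the same length. A match in letters says nothing of binding in these cells.

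Spib had 10373, 3564, 3864 and 403 UMIs, or 109, 73.3, 58.3 and 21 CPM. The level fell from each library to the next in that order, with no overlap of counting intervals. The log2 ratio to WT-Control was -0.57 (-0.63 to -0.52), -0.90 (-0.96 to -0.85) and -2.37 (-2.52 to -2.23), and that of Cd40-/- RANKL-Ab to Cd40-/- Control was -1.47 (-1.62 to -1.32). Only the comparisons with Cd40-/- RANKL-Ab passed the 2-fold limit. Microfold-gated cells numbered 539, 81, 333 and 4, or 5.28%, 1.13%, 3.88% and 0.192% of cells.

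Within the microfold gate Spib was at 388, 343 and 389 CPM in the first 3 libraries. In Cd40-/- RANKL-Ab it was at 225 CPM, but all 12 UMIs came from 1 of the 4 cells. The ratio to WT-Control was -0.18 (-0.42 to 0.06) in WT-RANKL-Ab and 0.01 (-0.11 to 0.12) in Cd40-/- Control on the log2 scale. The make-up of the gate differed, however: cells with 2 or more Aire UMIs were 30.8%, 8.64% and 21% of it. In its cells with fewer Aire UMIs, Spib was at 535 CPM (508 to 563), 367 CPM (310 to 432) and 462 CPM (427 to 499), so among these WT-Control was highest. Over all microfold-gated cells, whatever their Aire UMIs, a Spib UMI was found in 61.6%, 55.6% and 55.9%, and in 45.3%, 41.7% and 54.6% after thinning. In Psmb11+ Prss16+ cells it was found in 4.80%, 6.67%, 2.74% and 5.37%, or 2.35%, 3.65%, 1.30% and 0.694% after thinning. Microfold-gated cells had median depths of 7762, 3847 and 5701 UMIs.

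The microfold gate held only 18.8% of the Spib UMIs of WT-Control. Tuft-gated cells, at 257, 264, 181 and 265 CPM, were second to the microfold gate in the first 3 libraries and highest in Cd40-/- RANKL-Ab. Here Cd40-/- Control was below WT-Control (log2 ratio -0.50, -0.69 to -0.32), while WT-RANKL-Ab (0.04, -0.08 to 0.15) and Cd40-/- RANKL-Ab (0.04, -0.25 to 0.33) were level with it within counting error. After thinning, the share of cells with a UMI was larger in tuft-gated (54.1%) than in microfold-gated cells (45.3%) of WT-Control, against the CPM, so no order of the classes is read from it. In cells gated as early Aire-lineage (at least 2 of Tmem158, Hes6, Nkx6-2 and Utf1), Spib was at 105, 84.8, 63.9 and 64.0 CPM, in Ccl21a-high cells at 64.6, 69.3, 31.8 and 38.2 CPM, and in progenitor-gated cells at 30.7, 17.6, 15.1 and 13.8 CPM. In each of these 3 classes both Cd40-/- libraries were below WT-Control, by log2 ratios from -0.72 to -1.15 with intervals under 0. WT-RANKL-Ab was below WT-Control in the early Aire-lineage and progenitor classes (-0.31 and -0.80), and not in the Ccl21a-high class (0.10, -0.05 to 0.25). The early Aire-lineage gate held unlike cells in the 4 libraries. Aire was at 431, 45.4, 527 and 32.7 CPM in it and Ccl21a at 7884, 21908, 4167 and 35679.5 CPM, and 50%, 5.36%, 58.4% and 1.14% of its cells had 2 or more Aire UMIs. The part of this difference in the Spib values was not tested.

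Foxj1, the master regulator of motile cilia, lies at chr11:116330704-116335399 (minus strand). It had 1382, 181, 478 and 54 UMIs, or 14.5, 3.72, 7.21 and 2.82 CPM. Every other library was at least 2-fold below WT-Control, with log2 ratios of -1.96 (-2.19 to -1.74), -1.01 (-1.16 to -0.86) and -2.36 (-2.78 to -1.97). It was the only factor past the limit in Cd40-/- Control, at 2.01-fold, and it fell under the limit when only cells with at least 2000 UMIs were used. Ciliated-gated cells numbered 85, 15, 57 and 0, or 0.832%, 0.209% and 0.663% of cells, with 0 of 2082 cells in the last library. For 0 cells the limit given is that of 3 cells, here 0.144%, and the exact interval reaches 0.177%.

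Within the ciliated gate Foxj1 fell short of the WT-Control level of 455 CPM in Cd40-/- Control, with 242 CPM and a log2 ratio of -0.91 (-1.18 to -0.66). In WT-RANKL-Ab 10 UMIs in 15 cells gave 181 CPM, too few cells for a ratio by the rule of 20 cells. A UMI was found in 81.2% and 57.9% of ciliated-gated cells in WT-Control and Cd40-/- Control, and in 64.9% and 42.6% after thinning, against 2.40% and 0.457% of Psmb11+ Prss16+ cells (0% of both after thinning). Median depths of the gated cells were 12829 and 8599 UMIs. Of the other ciliary regulators in the same cells, Ccno, a driver of centriole amplification, was at 588 and 613 CPM, and Myb at 216 and 222 CPM. Rfx3 was at 29.7 CPM from 34 UMIs and 39.7 CPM from 26 UMIs. Of the cells with at least 5 Foxj1 UMIs, 40 of 50 in WT-Control and 18 of 23 in Cd40-/- Control were ciliated-gated.

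Insm1, a zinc-finger repressor that acts in neuroendocrine differentiation, lies at chr2:146221921-146225020 (plus strand). It had 5439, 751, 4176 and 24 UMIs, or 57.1, 15.4, 63.0 and 1.25 CPM. Both antibody libraries were below both control libraries, and Cd40-/- Control was slightly above WT-Control (log2 ratio 0.14, 0.08 to 0.20). The log2 ratio to WT-Control was -1.89 (-2.0 to -1.78) in WT-RANKL-Ab and -5.51 (-6.15 to -4.93) in Cd40-/- RANKL-Ab, a 45.6-fold difference. Neuroendocrine-gated cells numbered 227, 89, 145 and 3.

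Within that gate Insm1 was at 165, 182 and 173 CPM in the first 3 libraries. The log2 ratios to WT-Control, 0.14 (-0.21 to 0.48) and 0.07 (-0.21 to 0.34), included 0, so no difference was detectable at this depth. A UMI was found in 56.8%, 56.2% and 53.1% of these cells (35.4%, 34.7% and 35.0% after thinning), against 2.40%, 1.33% and 1.37% of Psmb11+ Prss16+ cells (1.18%, 0.487% and 0.435% after thinning). The median depths of the gated cells were 7382, 4934 and 6137 UMIs. Yet the gate held only 5.55% of the Insm1 UMIs of WT-Control. The early Aire-lineage class held 33.7% and the cycling class 20.2%, at 64.2 and 107 CPM. In WT-RANKL-Ab the neuroendocrine gate was 13.3-fold above other cells, and in Cd40-/- Control 2.83-fold. The early Aire-lineage gate had 16.6 CPM of Insm1 in WT-RANKL-Ab, where its Aire was 45.4 CPM against 431 CPM in WT-Control, so the cells compared were not alike. Of 247 cells with at least 5 Insm1 UMIs in WT-Control, 13 were neuroendocrine-gated and 216 had at least 2 Aire UMIs.

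Outside the mimetic and thymocyte gates, Insm1 followed the Aire UMIs of the cell. In WT-Control it was at 15.9 CPM in cells with 0 Aire UMIs, 51.3 CPM with 1 and 90.3 CPM (87.3 to 93.4) with 2 or more. In WT-RANKL-Ab the levels were 8.90, 28.7 and 99.6 CPM (87.1 to 113), and in Cd40-/- Control 16.2, 87.2 and 123 CPM (118 to 127). Cells with 2 or more Aire UMIs thus had as much Insm1 in WT-RANKL-Ab as in WT-Control within counting error, but there were 244 of them instead of 2640. In Cd40-/- RANKL-Ab 6 such cells were left, and the 1671 cells with 0 Aire UMIs had Insm1 at 0.773 CPM (0.386 to 1.38). Aire-rich cells were also deeper, with a median of 13157 UMIs against 5431 in WT-Control, and the part of depth in the CPM was not tested.

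In cycling cells the same division was seen. Cycling cells under the Ccl21a limit (50 UMIs per 10000), which had more Aire (456 against 134 CPM in WT-Control), carried Insm1 at 119 CPM in WT-Control, and those above it at 28.0 CPM. In Cd40-/- Control the levels were 156 and 24.0 CPM, and in WT-RANKL-Ab 54.0 CPM from 16 UMIs and 15.5 CPM from 11 UMIs.

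Spib followed Aire less steeply outside the mimetic and thymocyte gates. It was at 62.4, 83.6 and 108 CPM in WT-Control cells with 0, 1 and 2 or more Aire UMIs, at 53.1, 86.5 and 93.5 CPM in WT-RANKL-Ab and at 25.8, 56.3 and 69.0 CPM in Cd40-/- Control. In Cd40-/- RANKL-Ab cells with 0 Aire UMIs had 19.0 CPM. Cells with 0 Aire UMIs had less Spib in both Cd40-/- libraries than in either wild-type library, whereas Insm1 in such cells was level at 15.9 and 16.2 CPM in the control libraries. The cells outside the mimetic and thymocyte gates were not alike between libraries. Progenitor-gated cells were 3.73%, 9.91%, 6.55% and 30.9% of cells. Psmb11+ Prss16+ cells numbered 125, 525, 656 and 354, with Spib at 7.45, 10.7, 6.65 and 5.03 CPM. The part of this make-up in the Spib and Insm1 values was not tested.

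**Figure D4:**
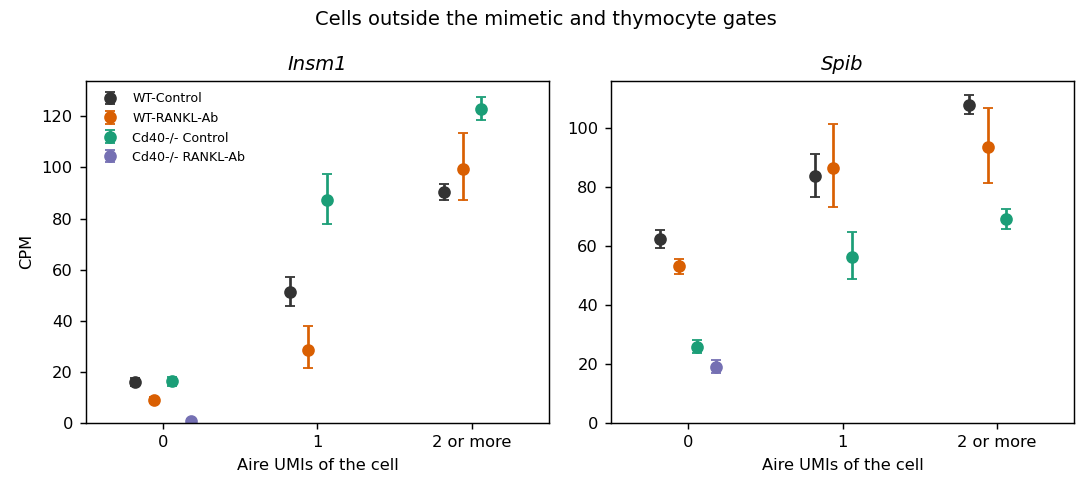
CPM of Insm1 (left) and Spib (right) in cells outside the mimetic and thymocyte gates, by the number of Aire UMIs of the cell (x axis), with exact 95% Poisson intervals; groups of under 20 cells are left out, so Cd40-/- RANKL-Ab is drawn at 0 Aire UMIs alone. Insm1 rises from 15.9 to 90.3 CPM in WT-Control, and Spib is lower in Cd40-/- Control than in WT-Control at each Aire level. The classes that make up these cells differ in share between libraries.

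Hnf4a, a nuclear receptor of hepatocytes and enterocytes, lies at chr2:163506808-163572910 (plus strand) and overlaps the antisense gene Hnf4aos, which has a count of its own. It was rare, with 120, 10, 114 and 1 UMIs, or 1.26, 0.206, 1.72 and 0.0522 CPM. Nearly all of its UMIs came from the control libraries. The log2 ratio to WT-Control was -2.61 (-3.71 to -1.69) in WT-RANKL-Ab, 0.45 (0.07 to 0.83) in Cd40-/- Control and -4.59 (-9.91 to -2.09) in Cd40-/- RANKL-Ab. Enterohepatic-gated cells numbered 626, 57, 356 and 0, or 6.13%, 0.796% and 4.14% of cells, with the limit of 3 cells again at 0.144% for the 0.

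Within the enterohepatic gate Hnf4a was at 6.55, 16.3 and 10.3 CPM from 42, 5 and 32 UMIs. The log2 ratios to WT-Control, 1.31 (-0.38 to 2.65) and 0.65 (-0.06 to 1.35), included 0. A UMI was found in 3.67%, 3.51% and 5.34% of enterohepatic-gated cells (2.33%, 2.94% and 3.59% after thinning), while Psmb11+ Prss16+ cells had 0%, 0% and 0.457%. Most enterohepatic-gated cells therefore had effector genes but no detected Hnf4a, at median depths of 9285, 4543 and 7776 UMIs. The gate held 35.0% of the Hnf4a UMIs of WT-Control, and in Cd40-/- Control the microfold gate (11.1 CPM, 7.02 to 16.6) was level with it within counting error. The highest level in WT-Control, 19.0 CPM, was in the 31 cells whose largest share of markers tied between gates, where all 7 UMIs came from 1 cell.

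Grhl1, a Grainyhead-like factor of the differentiating epidermis, lies at chr12:24572283-24617391 (plus strand). It had 759, 285, 828 and 91 UMIs, or 7.97, 5.86, 12.5 and 4.75 CPM. Cd40-/- Control was highest, at a log2 ratio of 0.65 (0.50 to 0.79) to WT-Control. The ratio was -0.44 (-0.64 to -0.24) in WT-RANKL-Ab and -0.75 (-1.08 to -0.43) in Cd40-/- RANKL-Ab, and -1.39 (-1.72 to -1.08) between Cd40-/- RANKL-Ab and Cd40-/- Control, the only one past the 2-fold limit. Keratinocyte-gated cells numbered 217, 50, 195 and 12.

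Within the keratinocyte gate Grhl1 was at 59.2, 110.4, 90.6 and 39.7 CPM, the last from 5 UMIs. Over all cells of the gate, WT-RANKL-Ab (log2 ratio 0.90, 0.35 to 1.42) and Cd40-/- Control (0.61, 0.23 to 1.00) were above WT-Control. The make-up of this gate differed as well: 17.1%, 2% and 14.4% of its cells had 2 or more Aire UMIs in the first 3 libraries. With those cells left out, Grhl1 was at 84.2 CPM (69.2 to 101), 109 CPM (78.6 to 149) and 117 CPM (96.6 to 142). Both later intervals overlapped that of WT-Control. A UMI was found in 31.8%, 50%, 32.8% and 25% of the gated cells, or 20.5%, 24.4%, 18.2% and 16.7% after thinning, at median depths of 6747, 6471, 5711 and 8798 UMIs. In Psmb11+ Prss16+ cells it was found in 4.80%, 5.52%, 8.84% and 7.63% (1.18%, 1.95%, 4.13% and 3.82% after thinning). A share in the keratinocyte gate is read against that background. The gate held 14.9%, 14.7%, 13.9% and 5.49% of all Grhl1 UMIs.

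Foxi1, a forkhead factor of ionocytes, which secrete and absorb ions in airway and kidney, lies at chr11:34204338-34208089 (minus strand). It had 308, 53, 191 and 0 UMIs, or 3.23, 1.09, 2.88 and 0 CPM. For the 0 UMIs in Cd40-/- RANKL-Ab the limit of 3 UMIs is 0.157 CPM, and the exact interval reaches 0.193 CPM. At the limit of 3 UMIs, Cd40-/- RANKL-Ab was 20.6-fold lower than WT-Control and 18.4-fold lower than Cd40-/- Control. The exact intervals of these log2 ratios reach up to -4.06 and -3.89. WT-RANKL-Ab had a log2 ratio of -1.57 (-2.02 to -1.14) to WT-Control, and Cd40-/- Control one of -0.17 (-0.43 to 0.10).

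The ionocyte gate, which asks for at least 3 of 8 proton pump and chloride channel genes, held only 3, 6, 3 and 0 cells. Foxi1 was at 490 CPM from 10 UMIs, 446 CPM from 13 UMIs and 219 CPM from 4 UMIs in them, and a UMI was found in 3 of 3, 4 of 6 and 3 of 3 cells. Most Foxi1 lay elsewhere. Of 23 cells with at least 5 Foxi1 UMIs in WT-Control, 2 had the 3 markers of the gate, 8 had at least 1, and 15 had at least 2 Aire UMIs. In Cd40-/- Control the counts were 0, 4 and 5 of 11 cells. In WT-RANKL-Ab, by contrast, 3 of the 5 such cells had the 3 markers, all 5 had at least 1, and none had 2 Aire UMIs. The ionocyte markers summed to 80.7, 2185 and 66.9 CPM in these cells. Most cells rich in Foxi1 thus lacked the effector genes of the gate in both control libraries.

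Myog, the basic helix-loop-helix factor myogenin that drives terminal muscle differentiation, lies at chr1:134289989-134292548 (plus strand). Its promoter is shown because Myog was found in gates of 2 lineages. The sequence is from RefSeq (GRCm38.p6), chr1:134289754-134290053, plus strand, and capitals mark the 2 matches to the E-box CANNTG, the letters that such factors bind.
Myog: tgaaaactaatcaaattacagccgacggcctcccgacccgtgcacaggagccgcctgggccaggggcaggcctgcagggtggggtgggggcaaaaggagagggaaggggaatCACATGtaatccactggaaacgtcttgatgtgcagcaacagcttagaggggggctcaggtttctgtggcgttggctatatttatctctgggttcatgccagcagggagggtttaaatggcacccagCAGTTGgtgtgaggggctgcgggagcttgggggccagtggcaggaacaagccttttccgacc
An E-box, which reads the same on both strands, was found in 72.3% of all promoters of this length.

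Myog had 1360, 2318, 532 and 74 UMIs, or 14.3, 47.7, 8.02 and 3.86 CPM. It was the 1 factor at least 2-fold higher in WT-RANKL-Ab than in WT-Control, at a log2 ratio of 1.74 (1.64 to 1.84). The ratio was -0.83 (-0.98 to -0.69) in Cd40-/- Control and -1.89 (-2.24 to -1.55) in Cd40-/- RANKL-Ab, and -1.05 (-1.43 to -0.70) between the Cd40-/- libraries. Muscle-gated cells numbered 42, 18, 20 and 0, or 0.411%, 0.251% and 0.233% of cells, with the limit of 3 cells again at 0.144% for the 0. Muscle-gated cells were thus not more frequent in the library with the most Myog.

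The muscle-gated cells of the libraries were unlike each other. Those of WT-Control had Myog at 639 CPM, with a UMI in 15 of 42 cells and at least 5 UMIs in 11. Those of WT-RANKL-Ab had 4427 CPM, with a UMI in 17 of 18 cells, at least 5 in 16 and 137 in the highest cell. In Cd40-/- Control 4 of 20 cells had a UMI, and of the 112 UMIs (545 CPM) 80 came from 1 cell, which leaves 32 without it. Cells with at least 2 Aire UMIs made up 27 of the 42 cells in WT-Control and 13 of the 20 in Cd40-/- Control, but 0 of the 18 in WT-RANKL-Ab. In WT-Control, Myog was at 1760 CPM in the 15 muscle-gated cells with under 2 Aire UMIs and at 33.9 CPM in the 27 others. No Myog UMI was found in Psmb11+ Prss16+ cells of WT-Control, and 0.571% and 0.305% of those of WT-RANKL-Ab and Cd40-/- Control had one.

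Myog was also found in tuft-gated cells. It was at 88.2, 185, 59.7 and 171 CPM there, with a UMI in 77 of 535, 222 of 650, 35 of 282 and 16 of 58 cells (14.4%, 34.2%, 12.4% and 27.6%, or 9.77%, 25.2%, 10.0% and 24.0% after thinning). Both antibody libraries were above both control libraries, with log2 ratios of 1.07 (0.90 to 1.25) for WT-RANKL-Ab against WT-Control and 1.52 (1.06 to 1.97) for Cd40-/- RANKL-Ab against Cd40-/- Control. The tuft gate held 30%, 34.5%, 19.7% and 95.9% of all Myog UMIs. Without the cell with the most Myog, the tuft gate kept 343 of 408, 676 of 799, 77 of 105 and 57 of 71 UMIs.

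The 12 muscle markers summed to 112, 109, 108 and 68.1 CPM in tuft-gated cells with Myog. In tuft-gated cells without Myog the sums were 67.0, 44.7, 55.4 and 60.1 CPM. Muscle-gated cells had 6521, 14285 and 3425 CPM in the first 3 libraries. A muscle-gated cell needed at least 3 of these same markers, so its higher sum was set by the gates. No conclusion on a muscle program in tuft-gated cells is drawn from that contrast. Chrna1, 1 of these 12 markers and a subunit of the muscle acetylcholine receptor, was in WT-RANKL-Ab at 66.2 CPM (120 UMIs) in tuft-gated cells with Myog, 22.0 CPM in those without and 107 CPM in muscle-gated cells. In WT-Control it was at 18.7, 7.85 and 60.5 CPM, and in Cd40-/- Control at 7.21 (2 UMIs), 6.75 and 63.2 CPM. In the tuft-gated cells of Cd40-/- RANKL-Ab it was at 45.4 CPM with Myog (6 UMIs) and 46.0 CPM without. The markers other than Chrna1 summed to 93.3, 43.1, 101 and 22.7 CPM in tuft-gated cells with Myog. In those without Myog they summed to 59.1, 22.8, 48.6 and 14.1 CPM. Myod1, the muscle determination factor, had 1 UMI in WT-Control tuft-gated cells with Myog and 0 in the other libraries. Muscle-gated cells themselves had only 1, 2 and 0 Myod1 UMIs in the first 3 libraries, so Myod1 does not tell the 2 gates apart. Pou2f3 was at 126, 194, 187 and 151 CPM in tuft-gated cells with Myog and at 134, 167, 170.2 and 180.4 CPM in those without, so the tuft factor was present in both.

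In most mimetic gates, the cells with little Aire had more of the lineage factor. In WT-Control gated cells with under 2 Aire UMIs against those with 2 or more, Spib was at 535 and 207 CPM in the microfold gate (log2 ratio 1.37, 1.22 to 1.52) and Foxj1 at 532 and 284 CPM in the ciliated gate (0.91, 0.59 to 1.24). Pou2f3 was at 142 and 83.6 CPM in the tuft gate (0.77, 0.40 to 1.16). Hnf4a was at 14.9 and 1.27 CPM in the enterohepatic gate (3.55, 2.20 to 5.26), the latter from 5 UMIs. Grhl1 was at 84.2 and 5.0 CPM in the keratinocyte gate (4.07, 2.49 to 6.37), the latter from 3 UMIs.

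Insm1 was level, at 177 and 146 CPM in the neuroendocrine gate (0.28, -0.07 to 0.63). In Cd40-/- Control the same split gave log2 ratios of 0.96 (0.71 to 1.22) for Spib, 1.72 (0.59 to 2.97) for Hnf4a, 2.97 (1.70 to 4.62) for Grhl1 and -0.16 (-0.60 to 0.28) for Insm1. Cells with 2 or more Aire UMIs were the deeper ones, with medians of 12840 against 6495 UMIs in the microfold gate and 14145 against 5840 in the keratinocyte gate. The part of depth in these differences was not tested.

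**Figure D5:**
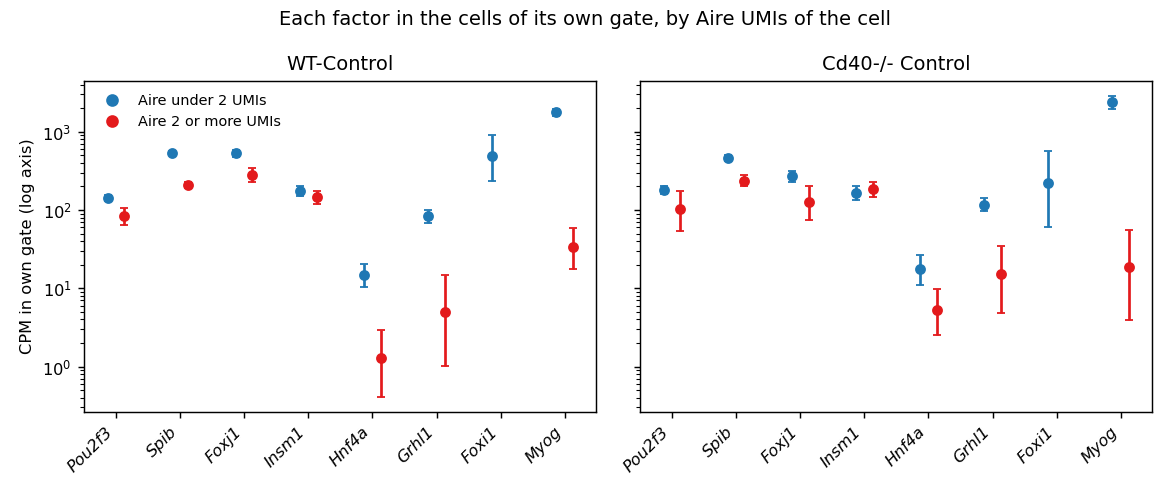
CPM of each factor in the cells of its own gate (log axis) with under 2 (blue) and with 2 or more Aire UMIs (red), in WT-Control (left) and Cd40-/- Control (right); bars are exact 95% Poisson intervals and Foxi1 has no gated cell with 2 Aire UMIs. In WT-Control the blue points of Grhl1 and Hnf4a (84.2 and 14.9 CPM) lie above the red ones (5.0 and 1.27 CPM), while those of Insm1 overlap.

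At least 1 of the 8 factors was found in 58.6%, 39.2%, 42.8% and 20.8% of cells, or 38.7%, 26.7%, 29.3% and 11.1% after thinning. At least 2 were found in 24.8%, 11.3%, 17.2% and 4.13%, or 6.72%, 5.40%, 5.32% and 1.17% after thinning. Without thinning, Spib was found in 42.0% of all cells of WT-Control and 28.3% of WT-RANKL-Ab. Of the cells with Pou2f3, 423 of 650 in WT-Control and 415 of 611 in WT-RANKL-Ab also had Spib, which is 9.85% and 20.5% of the cells with Spib. Pou2f3 and Myog were found together in 67 cells of WT-Control (10.3% of the cells with Pou2f3 and 22.9% of those with Myog) and in 175 of WT-RANKL-Ab (28.6% and 50.3%). Insm1 and Spib shared 1483 cells in WT-Control, 61.2% of the cells with Insm1 and 34.5% of those with Spib.

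Other transcriptional regulators of the 8 lineages, 60 in all, were counted by the same rules. At least 4-fold higher in the gate of their lineage in WT-Control were 7 of 7 for tuft, 1 of 5 for microfold, 7 of 8 for ciliated, 6 of 9 for neuroendocrine, 2 of 10 for enterohepatic, 2 of 10 for keratinocyte, 4 of 4 for ionocyte and 2 of 7 for muscle. The tuft list had a median log2 ratio of 3.28 where all genes had -0.29, and the ciliated list 4.01 where all genes had -0.27. The 1 microfold partner past the limit was Sox8, at a log2 ratio of 4.37 (4.14 to 4.60). Over whole libraries 23 partners were at least 2-fold lower and 5 higher in WT-RANKL-Ab than in WT-Control, where 29.6% and 7.67% of all genes tested were. Of the 60, 4 were lower and 2 higher in Cd40-/- Control (5.70% and 6.47% of all genes), and in Cd40-/- RANKL-Ab 33 were lower and 6 higher (34.5% and 13%). Their median log2 ratios were -0.28, 0.09 and -1.31, where those of all genes tested were -0.01, 0.09 and -0.09.

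Of the tuft partners, Sox9 was at 88.7, 149, 104 and 106 CPM over all cells and at 414, 577, 648 and 651 CPM in the tuft gate. Runx1 was at 24.4, 51.9, 44.3 and 57.2 CPM, and the homeobox gene Hmx2 at 13.5, 21.2, 6.44 and 5.06 CPM over all cells. Hmx2 in the tuft gate was at 143, 228, 107 and 227 CPM, higher in both antibody libraries than in both control libraries, as Myog was. Of the microfold list, the NF-kappaB subunit Relb was at 175, 139.8, 161 and 77.4 CPM over all cells, Rel at 31.6, 21.9, 46.8 and 26.6 CPM and Ets2 at 27.9, 57.3, 40.5 and 73.6 CPM.

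Most enterohepatic partners were lower over whole libraries: 8 of 10 were at least 2-fold lower in WT-RANKL-Ab and 9 of 10 in Cd40-/- RANKL-Ab. Cdx1, an intestinal homeobox factor, was at 202, 31.7, 116 and 2.87 CPM over all cells, and Hnf4g, the paralog of Hnf4a, at 11.3, 5.0, 8.52 and 4.33 CPM. Between the enterohepatic gate and all other cells of WT-Control, the log2 ratio was 0.11 (0.03 to 0.19) for Cdx1 and 2.01 (1.80 to 2.22) for Hnf4g. Among ciliary partners Ccno was at 11.1, 3.04, 11.9 and 5.59 CPM, Myb at 27.6, 27.0, 51.0 and 44.0 CPM and Rfx3 at 4.99, 6.31, 6.88 and 6.79 CPM over all cells.

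Of the neuroendocrine partners, Isl1 was at 48.9, 109, 101 and 139 CPM over all cells and St18 at 3.93, 8.0, 4.48 and 1.72 CPM. Of the keratinocyte partners, Trp63, the p63 factor of stratified epithelia, was at 60.6, 122, 93.3 and 222 CPM and Klf4 at 41.3, 53.4, 54.6 and 68.5 CPM. The ionocyte partners Dmrt2 (37.8, 58.8, 51.6 and 66.0 CPM) and Tfcp2l1 (13.5, 10.5, 17.9 and 7.99 CPM) were found in all 4 libraries, as was Ascl3 (0.493, 0.884, 0.573 and 0.104 CPM), of whose 43 UMIs in WT-RANKL-Ab 23 lay in the 6 ionocyte-gated cells. The muscle partners Six4 (15.2, 28.5, 26.4 and 25.5 CPM) and Mef2c (5.94, 9.60, 6.47 and 5.69 CPM) were not 2-fold lower in Cd40-/- RANKL-Ab than in WT-Control, but 3 of the 7 muscle partners were, and 1 was 2-fold higher.

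The genes whose levels ran most alike with each factor were sought over 57 sums of a class in a library, by Pearson correlation of log2(CPM + 10) among 17695 genes other than the gate markers and the factors. The sums share libraries and differ in depth, so the values are descriptions. Pou2f3 ran most like Nrg4 (r = 0.92), Plk2, L1cam, Ly6g6d and Ptgs1, all highest in tuft-gated cells. Foxj1 ran most like Lrrc34 (0.92), Tomm20l, 1700001L19Rik, Spag6l and Ccdc113, highest in ciliated-gated cells. Grhl1 ran most like Flg (0.86), Gm12349, Pla2g2f, Ephx3 and Adgrf4, highest in keratinocyte-gated cells, of which Flg encodes the epidermal protein filaggrin. Insm1 ran most like Spock3 (0.96), Gdap1l1, Dleu7, H2-Eb2 and Igsf9b.

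The leading genes of the other factors were spread over several gates. Spib ran most like Lsr (0.81), Efhd2, Tcf7l1 and Rassf6, highest in microfold-gated or tuft-gated cells. Myog ran most like Adgrf3 (0.83) and Prkag3, highest in tuft-gated cells, and Cavin4, Plxna4 and Kcnh7, highest in muscle-gated cells. Hnf4a ran most like Slc15a1 (0.81), the intestinal peptide transporter, Tnfsf4, Btnl1, Tmem253 and Sult1d1, and Foxi1 most like Ostn (0.77), Nrn1, Clec2e, 1600010M07Rik and Dqx1. Among the factors themselves the highest correlation was 0.63, between Hnf4a and Foxi1.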

How the data were processed

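Droplet-based scRNA-seq libraries of TECs were analysed, 1 library of 3 pooled mice for each of 4 groups. Reads were trimmed with Fastp and aligned to mm10, and the authors deposited unnormalized UMI counts per gene and called cell; Cell Ranger is 5.0.1 in the file headers and 5.1 in the submitters' processing notes. The kit version differs between the labels and the methods, and gene positions are those of GENCODE on GRCm38. The deposited libraries held 10590, 7446, 9118 and 2099 barcodes.

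The cells kept had 200 genes or more and no more than 25% mitochondrial UMIs, and held 95277834, 48640841, 66295255 and 19153685 UMIs. Each cell was placed in 1 class by 16 gates. Mimetic gates asked for at least 3 markers (4 for enterohepatic and keratinocyte) and marker UMIs of at least 10 per 10000. UMIs were summed per class and library and scaled to 1000000 UMIs (CPM). Intervals at the 95% level were exact: Poisson for CPM, Clopper-Pearson for shares and conditional binomial for ratios. A factor was called at a 4-fold difference between a gate and other cells (at least 10 UMIs in all), and at a 2-fold difference between libraries (at least 20 UMIs). Ratios within a gate needed 20 cells in both libraries. A fold against 0 UMIs used a limit of 3 UMIs, and a share of 0 cells a limit of 3 cells.

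All 8 factors are named, with up to 3 partner regulators per lineage by total UMIs and the 5 most alike genes per factor with at least 100 UMIs. Some genes that this rule names are not reported here. The factors, gates and lists were chosen with earlier results of these data known. RefSeq promoters were found for 5 of the 8 factors (7 promoters). Calculations used Python 3.11.15, numpy 2.4.6, scipy 1.17.1 and pandas 2.3.3, with TMM factors from edgeR 4.0.16 under R 4.3.3, and were tested on simulated data. Alternatives were other gate, depth and scaling choices; leaving out gated cells with 2 or more Aire UMIs, cells of a factor's own gate or the barcodes shared by the Cd40-/- libraries was added after the data had been seen. Bulk RNA-seq and flow cytometry were not analysed here.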

Additional observations from a re-analysis of the deposited data

Results flagged for a closer look

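Pou2f3 and Myog moved in opposite directions under the antibody in the 2 genotypes, taken over whole libraries. The log2 ratio of Pou2f3 was 0.93 between WT-RANKL-Ab and WT-Control and -0.66 between Cd40-/- RANKL-Ab and Cd40-/- Control. The log2 ratio of Myog was 1.74 in wild-type and -1.05 in Cd40-/- mice. With 1 library per group the difference between genotypes was not tested. Within the tuft gate, Myog was higher in the antibody library of both genotypes (1.07 and 1.52), and Pou2f3 was 0.43 in wild-type and -0.01 (-0.41 to 0.36) in Cd40-/- mice.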

How the results depend on the processing

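Of 850 ratios compared over 15 alternatives, 830 kept their direction, as did all 439 of those past their limit. No paired analysis was possible because each group has 1 library, so leaving out a replicate could not be tried either. The number of factors past 2-fold within their own gate was 1 in WT-RANKL-Ab and became 2 with 1 marker fewer per gate, 0 with the mean over cells of CPM and 0 without gated cells that had 2 or more Aire UMIs. In Cd40-/- Control it was 0 and became 2 without cells passing several gates and 1 with the mean over cells. In Cd40-/- RANKL-Ab it was 0 against either control library and became 1 with 1 marker fewer. With the main gates, only Pou2f3 met the rule of 20 cells there, so the 0 covers 1 factor. In WT-RANKL-Ab, Pou2f3, Spib, Insm1, Hnf4a and Grhl1 met it, and in Cd40-/- Control all factors but Foxi1. The 1 factor past 2-fold in WT-RANKL-Ab was Hnf4a, from 5 UMIs and with an interval (-0.38 to 2.65) that included 0. The share of all genes past 2-fold within a gate was not counted, so these counts have no background. The log2 ratio of the mimetic share in WT-RANKL-Ab, -0.72, became -0.45 with 1 marker more, -0.56 with marker UMIs of 20 per 10000, -0.56 without cells passing several gates and -0.27 without Aire-rich gated cells. The last change also gave -2.10 for Cd40-/- RANKL-Ab against WT-Control (-2.59) and -1.73 against Cd40-/- Control (-2.13). The ratio in Cd40-/- Control, -0.46, became -0.33 without the thymocyte gate. Over whole libraries, the 1 factor higher in WT-RANKL-Ab became 2, adding Pou2f3, without cells passing several gates and without the thymocyte gate. The 1 factor lower in Cd40-/- Control, Foxj1, became 0 in cells with at least 2000 UMIs, without the thymocyte gate and without the cells of each factor's own gate, and 2 with TMM factors. In each case the cause was not tested. Depth limits Hnf4a and Foxi1, and every value from gates of under 20 cells.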

Other observations

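The factors differed in how their UMIs were spread over cells. The 10 cells with the most Myog held 35.4%, 44.8%, 46.6% and 85.1% of its UMIs, whereas the 10 cells with the most Spib held 3.0%, 3.14%, 4.76% and 14.1%. Grhl1 was found as a single UMI in 82.1% of the cells that had it in WT-Control, Foxj1 in 73.7%, Spib in 46.8% and Foxi1 in 42.5%. The highest single cell of WT-Control held 8 UMIs of Pou2f3, 40 of Spib, 24 of Foxj1, 17 of Insm1, 7 of Hnf4a, 6 of Grhl1, 23 of Foxi1 and 65 of Myog.

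Outside its own gate, the level of a factor in the remaining cells also differed between libraries. Foxj1 was at 9.14, 3.52, 4.88 and 2.82 CPM outside the ciliated gate, Pou2f3 at 4.95, 5.96, 6.90 and 3.52 CPM outside the tuft gate, and Myog at 10.7, 24.8, 6.36 and 3.86 CPM outside the muscle gate. The barcodes shared by both Cd40-/- libraries held 2 and 11 UMIs of Pou2f3, 6 and 38 of Spib, 1 and 11 of Foxj1 and 5 and 20 of Grhl1, in Cd40-/- Control and Cd40-/- RANKL-Ab.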
